A study of Mus musculus with 7 samples.

Results

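KRAB zinc finger genes form one of the largest and fastest changing gene families of mammals. Their proteins bind DNA through arrays of C2H2 zinc fingers, and the KRAB domain recruits TRIM28, which brings the histone methyltransferase SETDB1 and heterochromatin proteins to the bound site. Many of them silence retrotransposons, and the genes arose by repeated duplication, so that neighbours in a cluster can be nearly identical in sequence. The genes described here are the rows of the deposited count table that map to a mouse symbol of the form Zfp9 followed by 2 digits, or to 1 of 11 listed Gm genes of a zinc finger cluster on chromosome 2, with any count. They number 66 of the 26286 rows. The family name is the working name of the set, since no protein sequence was used here to check each gene for a KRAB domain. The RefSeq gene table holds 73 genes that match the names, and 7 of these have no row in the count table.

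The 11 Gm genes were listed with the difference between the genotypes in these libraries known, so their values are given as a description and carry no test. The Zfp9 symbols are a naming series with no limit on the measured values beyond a count above 0. The choice of this series was also made with earlier results of these data known. The lowest members just inside that limit were Zfp980 and Zfp987, with 1 count each over all libraries, and every matching row had a count, so none fell just outside.

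The libraries are polyA RNA-seq of cortical neurons from the brains of C57BL/6 mouse embryos at E16.5, all labelled male. There were 3 libraries labelled wild type and 4 labelled KAT7 mutant, each from a separate mouse. KAT7, also called HBO1, is a histone acetyltransferase that acts on lysine 14 of histone H3. The mutant allele, with any promoter or Cre line behind it, was not given in the sources used here, and neither the cells nor the time at which Kat7 was lost can be stated.

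Total counts ranged from 8272487 to 8813060 per library. Kat7 itself lay between 96.6 and 103 CPM (counts scaled to the size of the library, with TMM factors) in the wild type libraries and between 0.351 and 1.22 CPM in the mutants, as the labels say. A gene is called changed below at an adjusted p under 0.05 in edgeR's quasi-likelihood test with Benjamini-Hochberg adjustment over all 13681 tested genes. All log2 fold changes compare KAT7 mutant with wild type, with the standard error (SE) of the fit. By this rule 28.9% of all tested genes were called, 15.8% lower and 13.1% higher in the mutant, and the median log2 fold change of all tested genes was 0.003.

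Of the 66 members, 17 lie in the chromosome 2 cluster, taken as the stretch from the first to the last of the listed Gm genes: the 11 listed genes and Zfp965, Zfp966, Zfp967, Zfp968, Zfp970 and Zfp973. The other 49 lie elsewhere, on chromosomes 2, 4, 5, 6, 7, 8, 9, 10, 13, 14, 17 and 19. The promoters of the cluster genes show how alike its members are, and so they are given before the levels. The sequences are from RefSeq (GRCm38.p6), 5′ to 3′ on the strand of the gene, and each lies close to the annotated start. Capitals mark a run of bases that the promoters of 12 tested cluster members share with those of Zfp975 and Zfp976, members of a group on chromosome 7. The run is the longest that these 14 promoters have in common and was chosen after the data were seen.
Zfp970 (chr2:177464638-177464717, plus strand): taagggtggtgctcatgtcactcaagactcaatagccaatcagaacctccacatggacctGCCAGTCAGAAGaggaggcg
Zfp967 (chr2:176520905-176520984, plus strand): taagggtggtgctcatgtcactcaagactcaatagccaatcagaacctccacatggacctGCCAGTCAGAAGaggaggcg
Zfp971 (chr2:178023171-178023250, plus strand): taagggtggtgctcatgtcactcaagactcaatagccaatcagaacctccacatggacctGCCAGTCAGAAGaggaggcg
Gm14325 (chr2:177840368-177840447, minus strand): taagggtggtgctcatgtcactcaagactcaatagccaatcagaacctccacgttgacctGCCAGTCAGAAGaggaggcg
Gm14391 (chr2:175206912-175206991, minus strand): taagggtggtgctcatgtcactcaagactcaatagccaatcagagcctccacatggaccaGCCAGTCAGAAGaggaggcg
Zfp931 (chr2:178078489-178078568, minus strand): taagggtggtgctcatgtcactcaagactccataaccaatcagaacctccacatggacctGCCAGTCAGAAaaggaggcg
Zfp976 (chr7:42642612-42642691, minus strand): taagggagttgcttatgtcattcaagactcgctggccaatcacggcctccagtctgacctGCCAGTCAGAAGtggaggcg
Zfp975 (chr7:42692785-42692814, minus strand): gtctgacctGCCAGTCAGAAGtggaggcgg

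Zfp967 and Zfp971 were identical to Zfp970 at all 80 positions shown, and Gm14325 and Gm14391 at 78. Zfp931, which is the second row after the end of the cluster, matched at 77 positions and holds the first 11 bases of the run. Zfp976 matched at 65 positions, and Zfp975 is shown only around the run. RefSeq promoters, from 250 bases before to 50 after the start, were given for 60 of the 66 members: 16 of the 17 cluster members and 44 of the 49 others. The run of 12 bases (GCCAGTCAGAAG, searched on both strands) stood in all 16 of the cluster promoters, in 4 of the 44 others (Zfp936, Zfp971, Zfp975 and Zfp976) and in none of 250 promoters of other numbered Zfp genes. Over all 27025 genes with a promoter it stood in 45 (0.167%). A longer run of 54 bases shared by the 12 tested cluster promoters stood in 16 of 16 cluster promoters, in 1 of the 44 others and in 26 of the 27025 genes (0.0962%).

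A further 4 motifs, none of which stands within the run of capitals, were also counted on both strands. TATAAA stood in 15.7% of all promoters and in 0 of the 60 member promoters. GCATGCG stood in 4.01% of all and in 0 members. TGACGTC stood in 3.60% of all and in 2 members, and AGATGGC in 7.31% of all and in 2 members. A match is a description of letters in this window only.

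Inside the cluster, every member that could be tested stood lower in the KAT7 mutants. The filter on low counts kept 13 of the 17, and all 13 were called lower, against 15.8% of all tested genes. Because the listed genes were chosen from this same contrast, nothing is read from that count. It was 10 with DESeq2 and at an adjusted p under 0.01, 12 with the replicate block, and 10 to 13 leaving out each library in turn, lowest without wild type replicate 2. The genes that lost the call were Gm6710, Gm14410 and Gm14434. Of the 13, 6 passed the filter only through the wild type libraries (Gm14288, Gm14322, Gm14418, Gm14434, Zfp967 and Zfp970). In a fit without the filter all 17 members had a log2 fold change below 0, with a median of -1.15, beside 0.01 for all genes with a count.

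Gm14322 stood furthest apart. Its CPM was 4.63, 4.92 and 3.39 in wild type and 0.818, 0.580, 0.591 and 0.489 in the mutants, from 30 to 43 counts per wild type library and 4 to 7 per mutant library. The mutant mean was 14.4% of wild type (log2 fold change -2.77 ± 0.29 SE), and the highest mutant library was far below the lowest wild type library.

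Zfp970 and Zfp967 are members by name, under a rule that was set with earlier results of these data known. The CPM of Zfp970 was 3.09, 4.23 and 2.83 in wild type and 0.584, 0.580, 0.945 and 0.611 in the mutants. The genotypes did not overlap, and the log2 fold change was -2.29 ± 0.30 SE. Zfp967 had 1.42, 2.06 and 1.81 CPM in wild type and 0.701, 0.232, 0.945 and 0.367 CPM in the mutants. Its log2 fold change was -1.63 ± 0.39 SE, and again every mutant library was below every wild type library. Both genes passed the filter only through the wild type libraries, so the p of the filtered fit is not used for them. In the fit without the filter, where 11.9% of all genes were called lower, the edgeR adjusted p was 3.7e-10 for Zfp970 and 0.000753 for Zfp967.

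Gm14288 had 1.54, 2.86 and 1.24 CPM in wild type and 0.467, 0.348, 0.591 and 0.245 CPM in the mutants (log2 fold change -2.15 ± 0.43 SE). Wild type replicate 2 was the high library, and without it the log2 fold change was -1.72. Gm14418, which RefSeq lists as a pseudogene, had 2.26, 1.83 and 1.24 CPM in wild type and 0.701, 0.464, 0.473 and 0.489 CPM in the mutants (log2 fold change -1.71 ± 0.37 SE). These are genes of few counts, and their error is correspondingly wide.

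Gm2026, Gm14326 and Gm14325 had the most counts in the cluster and log2 fold changes from -1.15 to -0.75. Gm2026 had 14.7, 12.8 and 12 CPM in wild type and 5.73, 8.58, 7.80 and 9.29 CPM in the mutants (log2 fold change -0.75 ± 0.15 SE). Gm14326 had 13.8, 11.6 and 10.5 CPM against 5.49, 8.23, 6.38 and 7.34 CPM (log2 fold change -0.80 ± 0.15 SE). Gm14325 had 6.17, 6.75 and 7.13 CPM against 2.69, 2.67, 3.78 and 2.93 CPM (log2 fold change -1.15 ± 0.18 SE). In each of these the genotypes did not overlap. The remaining 5 listed genes, Gm14434, Gm14308, Gm14391, Gm14410 and Gm6710, had log2 fold changes from -1.04 to -0.70, also without overlap. Over the 13 tested cluster members the range was -2.77 to -0.70 with a median of -1.04, and 8 had at least a 2-fold fall, a size reached by 3.8% of all tested genes. All 13 had no overlap between genotypes in this direction, which was so for 18.8% of all tested genes. Nothing is read from these counts either. Of the 13, 11 were listed from this same contrast, and 6 passed the filter only through the wild type libraries.

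**Figure D1:**
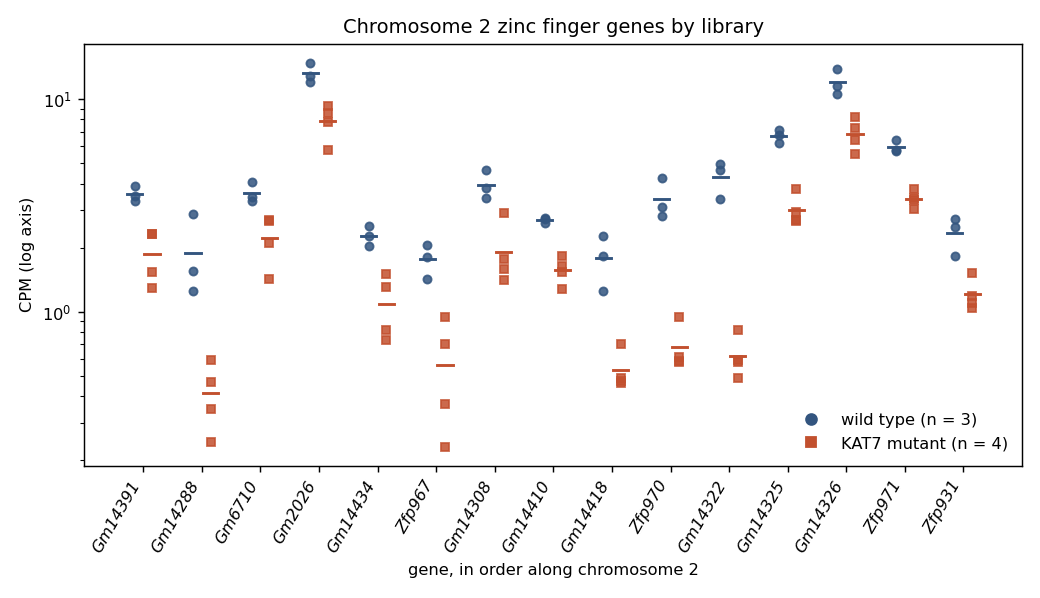
CPM on a log axis for the 13 tested members of the chromosome 2 cluster and for Zfp971 and Zfp931, in their order along the chromosome. Each point is 1 library (circles, 3 wild type; squares, 4 KAT7 mutant) and each bar the group mean; in every gene the mutant libraries lie below the wild type libraries.

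The other 4 cluster members had too few counts for the test. Zfp966 had 7, 8 and 10 counts in wild type and 4, 3, 4 and 2 in the mutants. Zfp973 had 7, 8 and 4 counts against 2, 5, 1 and 4. Zfp966 was lower in every mutant library and Zfp973 overlapped. Zfp968 had 2, 2 and 0 counts in wild type and none in the mutants, and Zfp965 had 0, 1 and 3 against 0, 0, 1 and 1, so neither shows a difference at this depth.

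The stretch holds 7 further rows that the member rule does not list (Gm4724, Gm14305, Gm14390, Gm14295, Gm14405, Gm14411 and Gm14406), taken by position and not by value. None passed the filter. Their summed level was 4.27, 5.61 and 3.17 CPM in wild type and 2.10, 2.09, 1.42 and 2.81 CPM in the mutants, or 48.4% of wild type, without overlap. In the fit without the filter 2 of the 7 were called lower, against 11.9% of all genes in that fit: Gm14305 (log2 fold change -1.29, edgeR adjusted p = 0.0162) and Gm4724 (-1.22, edgeR adjusted p = 0.0448). There 5 of the 7 had a log2 fold change below 0, while Gm14390 (0.32) and Gm14405 (0.17) lay above 0.

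The next rows beyond the last listed gene are Zfp971 and Zfp931, both members by name that count as outside the stretch. Zfp971 had 5.70, 6.41 and 5.77 CPM in wild type and 3.04, 3.36, 3.78 and 3.42 CPM in the mutants. It fell by 0.81 on the log2 scale (± 0.17 SE, edgeR adjusted p = 0.00139). Zfp931 had 2.73, 1.83 and 2.49 CPM against 1.52, 1.04, 1.18 and 1.10 CPM. Its log2 fold change was -0.95 ± 0.28 SE (edgeR adjusted p = 0.0162, and 0.016 without the filter, which it passed only through the wild type libraries), a call lost with DESeq2 (adjusted p = 0.0874) and when wild type replicate 1 (edgeR adjusted p = 0.0732) or 3 (edgeR adjusted p = 0.0569) was left out. Over all alternatives its adjusted p ranged from 0.0117 to 0.0874. Both genes had no overlap between genotypes. With these 2 rows added, the stretch held 15 tested members, all lower, with a median of -1.04, beside 15.8% lower in all tested genes. Of the 15, 11 were listed from this same contrast, and 7 passed the filter only through the wild type libraries. Nothing is read from that count or median.

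The 10 nearest tested genes, 5 before the cluster (Gnas, Nelfcd, Ctsz, Atp5e and Prelid3b) and 5 after Zfp931 (Phactr3, Ppp1r3d, Fam217b, Cdh4 and Taf4), had log2 fold changes from -0.25 to 0.41 with a median of -0.07. Of these, Nelfcd was called lower (-0.24 ± 0.08 SE, edgeR adjusted p = 0.0302) and Taf4 higher (0.19 ± 0.07 SE, edgeR adjusted p = 0.0385). The other 8 were not called, so that 2 of 10 were called beside 28.9% of all tested genes.

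Reads of near-identical genes can be assigned to the wrong copy or discarded, and no source used here gives the setting for reads with several matches. The share of each gene's transcript words (runs of 50 or 100 bases, GENCODE M21, transcript strand) that also stand in a transcript of another gene was counted as a measure of this. In the 17 cluster members the median share was 89.96% at 50 bases and 79.9% at 100 bases. In the 7 unlisted rows of the stretch it was 88.86% and 69.2%. In the 49 members elsewhere it was 11.7% and 2.63%, and in 305 other numbered Zfp genes 0.15% and 0%. Gm14288 and Zfp967 shared 100% of their words at both lengths, so no read of up to that length inside them is unique to them. The partners include overlapping and read-through gene models. The level of a single cluster gene is therefore uncertain, and the direction of a gene such as Zfp967 cannot be separated from that of its copies.

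Zfp970 had the most sequence of its own in the cluster at the longer length, with 17.4% of its words of 100 bases shared, and had a log2 fold change of -2.29. Gm14391 shared 36.3% of them and had a log2 fold change of -0.94. Gm14322 shared 72.8% of them, and at 50 bases its most frequent partner was Gm14418. A sum over the stretch does not depend on how reads were split among its 24 rows. It would miss reads that were discarded or that belong to copies without a row. RefSeq lists 64 genes in the stretch, of which 24 have a row. All 24 rows together held 584, 618 and 549 counts in wild type and 233, 305, 264 and 283 in the mutants. The summed level was 67.4 ± 4.6 CPM (SD, n = 3) for wild type. For the mutants it was 32.1 ± 3.7 CPM (SD, n = 4), or 47.6% of wild type. No mutant library came near the wild type libraries in this sum. The sum holds the 11 Gm genes that were listed from this same contrast, so nothing is read from that separation.

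**Figure D2:**
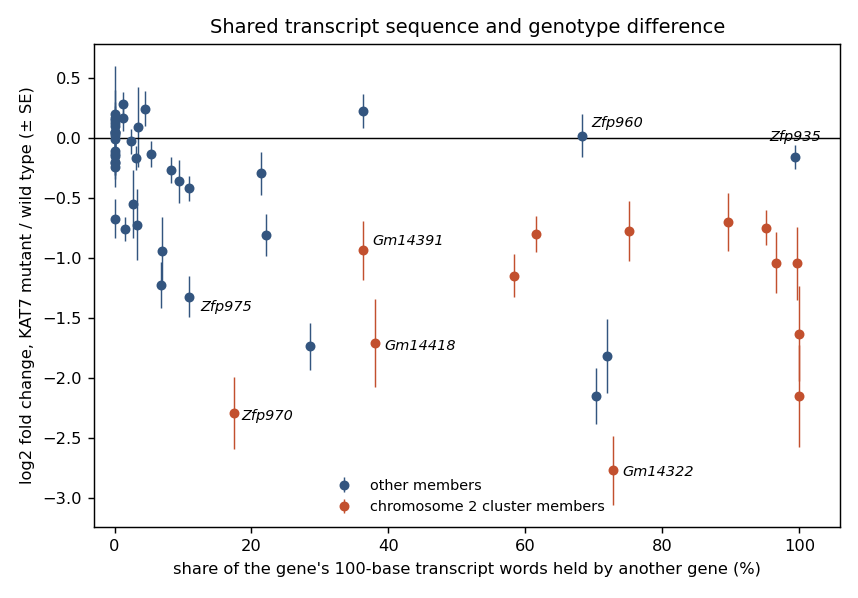
Log2 fold change (KAT7 mutant over wild type, with its SE) of the tested members against the share of their transcript words of 100 bases that another gene also holds. Members of the chromosome 2 cluster (orange) lie below 0 from 17.4% to 100% shared. Elsewhere in the genome, Zfp935 and Zfp960 lie near 0 with 99.4% and 68.3% shared. Zfp991 and Zfp993, with 70.3% and 71.85% shared, lie at -2.15 and -1.81.

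Some members with a high share of common words were not called. Zfp935 shared 99.4% of its words of 100 bases and had 22.9 CPM in wild type and 20.6 CPM in the mutants (log2 fold change -0.16 ± 0.10 SE, edgeR adjusted p = 0.26). Zfp960 shared 68.3% and had 6.24 and 6.30 CPM (0.02 ± 0.18 SE, edgeR adjusted p = 0.949). Both were chosen for their shared sequence after their values were seen. Zfp991 and Zfp993, also outside the cluster, shared 70.3% and 71.85% and had log2 fold changes of -2.15 and -1.81. Of the tested members outside the cluster with at least 20% of their words of 50 bases shared, 8 of 14 were called lower and 0 higher, with a median of -0.68. Of those under 20%, 2 of 27 were lower and 1 higher, with a median of -0.01. Among the other numbered Zfp genes the counts were 3 lower of 20 tested at 20% or more, and 36 lower and 25 higher of 261 under 20%. The shares over all tested genes were 15.8% lower and 13.1% higher. The 8 lower members include Zfp931 and Zfp993, which passed the filter only through the wild type libraries, and related copies such as Zfp991 and Zfp993. Nothing is read from the difference between these classes.

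Of the 49 members outside the cluster 41 were tested, and 10 of these were called lower and 1 higher, with 30 not called. In all tested genes 15.8% were lower and 13.1% higher. The median log2 fold change was -0.15, beside 0.003 in all tested genes, and 2 of the 41 passed the filter only through the wild type libraries (Zfp931 and Zfp993).

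On chromosome 4, Zfp991 and Zfp992 fell, and Zfp993 was lower in every mutant library. Zfp991 had 4.63, 6.75 and 6.45 CPM in wild type and 1.17, 1.39, 1.18 and 1.59 CPM in the mutants and fell by 2.15 on the log2 scale (± 0.23 SE, edgeR adjusted p = 6.26e-07). Zfp992 had 6.65, 8.01 and 8.71 CPM against 3.04, 2.43, 2.01 and 1.83 CPM and fell by 1.73 (± 0.20 SE, edgeR adjusted p = 1.2e-06). Zfp993 had 2.02, 3.55 and 2.94 CPM against 0.701, 0.696, 0.827 and 0.978 CPM (log2 fold change -1.81 ± 0.31 SE). It passed the filter only through the wild type libraries, and its edgeR adjusted p was 1.22e-06 in the fit without the filter. None of the 3 overlapped between genotypes.

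These genes also share sequence. Zfp991 shared 82.2% of its words of 50 bases, most often with Znf41-ps, a pseudogene that is no member. Znf41-ps had 4.93 CPM in wild type and 1.12 CPM in the mutants (log2 fold change -2.12 ± 0.25 SE) and also passed the filter only through the wild type libraries. Zfp993 shared 86.8% and Zfp992 43.0%, both most often with Zfp991. The sum of the 3 was 13.3, 18.3 and 18.1 CPM in wild type and 4.91, 4.52, 4.02 and 4.40 CPM in the mutants, or 26.9% of wild type. These 3 genes were grouped after their values were seen. Chromosome 4 was not lowered throughout: Zfp933 had 30.7 CPM in wild type and 31.7 CPM in the mutants (0.04 ± 0.09 SE, edgeR adjusted p = 0.75), and Zfp979 had 6.42 and 5.23 CPM (-0.30 ± 0.18 SE, edgeR adjusted p = 0.227). The other 4 members there, Zfp980, Zfp982, Zfp985 and Zfp987, had at most 6 counts in any library and were not tested. The run of 12 bases is not in the promoter of Zfp993.

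On chromosome 7, Zfp975 and Zfp976 fell by similar amounts, and they carry the run of 12 bases printed above. Zfp975 had 7.36, 10.1 and 10.1 CPM in wild type and 3.27, 3.71, 3.78 and 3.91 CPM in the mutants and fell by 1.32 (± 0.17 SE, edgeR adjusted p = 5.41e-06). Zfp976 had 11, 9.15 and 7.69 CPM against 3.97, 5.10, 2.48 and 4.28 CPM and fell by 1.23 (± 0.19 SE, edgeR adjusted p = 7.54e-05). They shared 30.4% and 20.36% of their words of 50 bases with another gene, and 10.95% and 6.85% at 100 bases. Both were less than in most cluster members. Zfp977, which was not tested, had 9, 12 and 9 counts in wild type and 2, 3, 4 and 2 in the mutants, without overlap, and was called lower in the fit without the filter (log2 fold change -1.79, edgeR adjusted p = 0.00436). The sum of the 3 was 19.5, 20.6 and 18.8 CPM against 7.48, 9.16, 6.73 and 8.44 CPM, or 40.5% of wild type. These 3 genes were also grouped after their values were seen.

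Zfp939, also on chromosome 7, was the single member called higher. It had 15.7, 19 and 17.5 CPM in wild type and 20.6, 20.1, 22.2 and 22.0 CPM in the mutants, a log2 fold change of 0.28 ± 0.10 SE (edgeR adjusted p = 0.0389) without overlap. The call was lost with DESeq2 (adjusted p = 0.100), without the filter (edgeR adjusted p = 0.0521) and with the replicate block (edgeR adjusted p = 0.0965). Leaving out the wild type libraries 1 or 3 lost it too (edgeR adjusted p = 0.182 and 0.0859), as did leaving out the mutant libraries 3 or 4 (edgeR adjusted p = 0.0907 and 0.0881). Over all alternatives its adjusted p ranged from 0.0362 to 0.182. A further 4 tested members of chromosome 7 were not called. Of these Zfp941 had 5.34, 2.75 and 2.38 CPM in wild type and 2.22, 1.85, 2.84 and 1.47 CPM in the mutants, where wild type replicate 1 was the high library (log2 fold change -0.72 ± 0.29 SE, edgeR adjusted p = 0.0731, and 0.0259 in the fit without the filter).

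**Figure D3:**
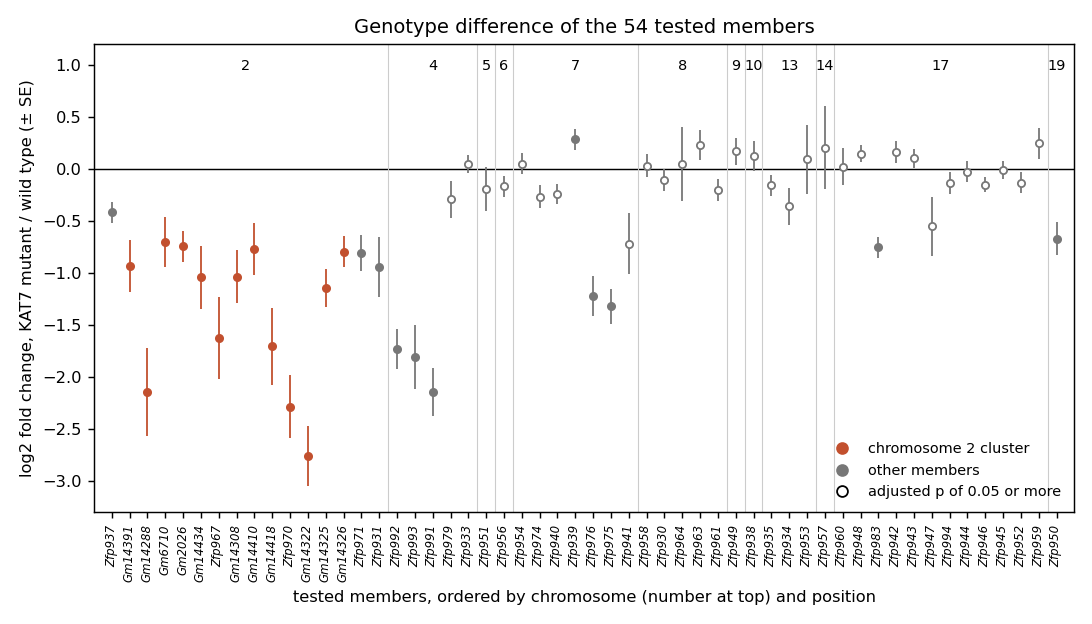
Log2 fold change (KAT7 mutant over wild type, bars are the SE) of the 54 tested members, ordered by chromosome (number at the top) and position. The chromosome 2 cluster (orange), Zfp991, Zfp992 and Zfp993 on chromosome 4 and Zfp975 and Zfp976 on chromosome 7 lie well below 0, and most members on the other chromosomes lie near 0 (open circles, adjusted p of 0.05 or more).

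Away from chromosomes 4 and 7 and from Zfp971 and Zfp931, 27 members were tested and 3 were called, all lower. That is 11.1%, beside 15.8% of all tested genes, with a median of -0.03. The subset was set after the values were seen and leaves out places with falls, so nothing is read from its share or median. Zfp983, on chromosome 17, had 27.4, 29.2 and 26.1 CPM in wild type and 17.5, 16.2, 17.7 and 13.8 CPM in the mutants and fell by 0.75 (± 0.10 SE, edgeR adjusted p = 9.47e-06). Zfp950, on chromosome 19, had 11.4, 11.6 and 7.92 CPM against 7.01, 5.80, 5.67 and 7.34 CPM and fell by 0.67 (± 0.16 SE, edgeR adjusted p = 0.00329). Zfp937, on chromosome 2 outside the cluster, had 17.8, 18.2 and 17.1 CPM against 12.4, 12.9, 13.6 and 14.1 CPM and fell by 0.42 (± 0.10 SE, edgeR adjusted p = 0.00439). None of the 3 overlapped, and Zfp983 and Zfp950 shared under 10% of their words of 50 bases (9.83% and 0.83%).

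Chromosome 17 holds 13 members, more than any chromosome but chromosome 2. Of the 12 tested there Zfp983 alone was called. Zfp946 had 70.8, 71.7 and 68.6 CPM in wild type and 72.2, 59.6, 63.9 and 57.5 CPM in the mutants, with overlap (-0.15 ± 0.07 SE, edgeR adjusted p = 0.122). It was called without KAT7 mutant replicate 1, the high mutant library (-0.22, edgeR adjusted p = 0.0123), and with limma's quality weights (adjusted p = 0.0385), over a range of 0.0123 to 0.309 for all alternatives. Zfp948 had 38.6, 32.0 and 34.5 CPM against 35.1, 42.3, 37.6 and 40.1 CPM (0.15 ± 0.08 SE, edgeR adjusted p = 0.213). Zfp943 (0.10 ± 0.09 SE, edgeR adjusted p = 0.443) and Zfp952 (-0.13 ± 0.10 SE, edgeR adjusted p = 0.366) also overlapped between genotypes. With Zfp933, these were the uncalled members of highest CPM.

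**Figure D4:**
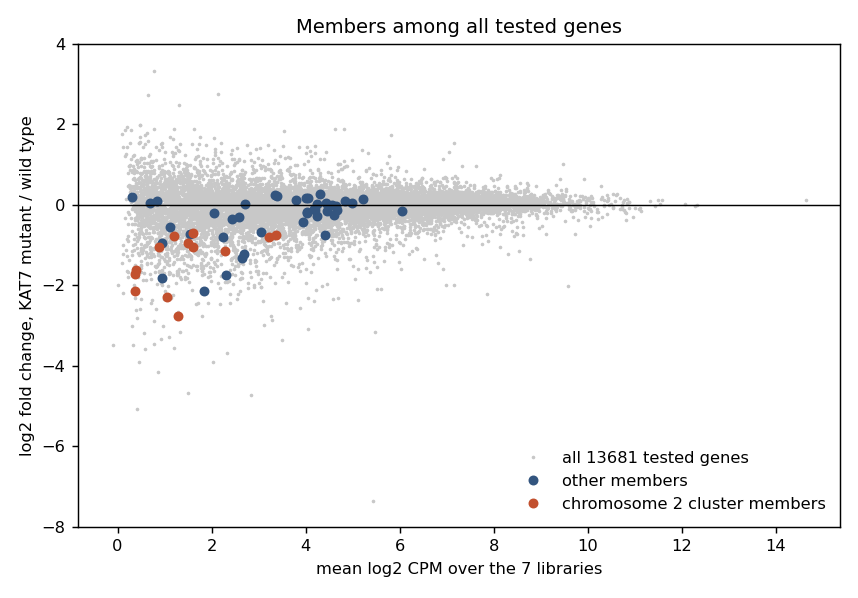
Log2 fold change (KAT7 mutant over wild type) against mean log2 CPM over the 7 libraries for all 13681 tested genes (grey), the tested members outside the cluster (blue) and those inside (orange). The 13 cluster members lie at low to moderate CPM, all below 0, and most members of higher CPM lie near 0.

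Zinc finger genes that are no members changed in both directions. Among 283 tested numbered Zfp genes of this kind, 40 were called lower and 25 higher, with a median of -0.001. That is 14.1% lower and 8.83% higher, beside 15.8% and 13.1% of all tested genes. The summed CPM of all 307 rows of this group was 101% of wild type in the mutants, and that of the 49 members outside the cluster 90.5%, with 637, 658 and 609 CPM in wild type and 559, 579, 584 and 576 CPM in the mutants.

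**Figure D5:**
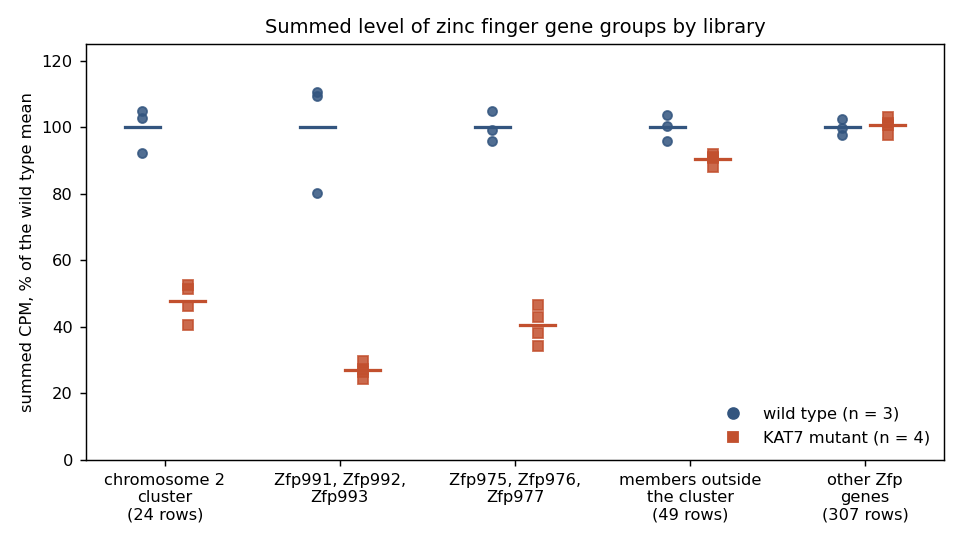
Summed CPM per library as a percentage of the wild type mean for 5 groups of rows (circles, 3 wild type; squares, 4 KAT7 mutant; bars are group means). The chromosome 2 cluster stood at 47.6% of wild type and the other numbered Zfp genes at 101%. Zfp991, Zfp992 and Zfp993 on chromosome 4 stood at 26.9%, and Zfp975, Zfp976 and Zfp977 on chromosome 7 at 40.5%. The genes of chromosomes 4 and 7 were grouped after their values were seen, and the cluster holds the listed Gm genes. Nothing is read from the contrast with the other groups.

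Of the 45 genes whose promoter holds the run of 12 bases, 17 were tested. Of these 14 had served to find it. The other 3 were Zfp971, lower as given above; A630089N07Rik, with 3.78 CPM in wild type and 2.58 CPM in the mutants (-0.55 ± 0.23 SE, edgeR adjusted p = 0.0843); and Klf9, a transcription factor induced by glucocorticoids and thyroid hormone, which rose from 38.8 to 58.3 CPM (0.59 ± 0.08 SE, edgeR adjusted p = 7.37e-06). Of the 8 members outside the cluster that were called lower and have a promoter entry, 3 hold the run and 5 do not. Zfp936, which holds the run, was not tested and overlapped between genotypes, with 6, 3 and 6 counts in wild type and 1, 2, 4 and 8 in the mutants.

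Of 31 genes listed for the machinery through which KRAB zinc finger proteins act, 30 were tested. Of these 3 were higher and 3 lower, with a median of 0.03, or 10% each way beside 13.1% and 15.8% of all tested genes. Trim28, the corepressor bound by the KRAB domain, had 358 CPM in wild type and 352 CPM in the mutants (-0.03 ± 0.05 SE, edgeR adjusted p = 0.707). Setdb1, the histone methyltransferase, had 19.5 and 18.2 CPM (-0.10 ± 0.10 SE, edgeR adjusted p = 0.511).

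Uhrf1, which guides maintenance DNA methylation and is highest in dividing cells, fell from 12.8 to 6.31 CPM (-1.03 ± 0.14 SE, edgeR adjusted p = 8.63e-06). Chd3, a remodeller of the NuRD complex, fell by 0.17 (± 0.05 SE, edgeR adjusted p = 0.0113), and Cbx1, a heterochromatin protein, fell by 0.19 (± 0.07 SE, edgeR adjusted p = 0.0487). Morc2a, a partner of the HUSH silencing complex, rose by 0.31 (± 0.05 SE, edgeR adjusted p = 4.28e-05). Smarcad1, a chromatin remodeller that binds TRIM28, rose by 0.27 (± 0.05 SE, edgeR adjusted p = 0.00082). Resf1, a factor needed for retroelement silencing, rose by 0.17 (± 0.06 SE, edgeR adjusted p = 0.0414). The calls of Cbx1 and Resf1 were close to the threshold, with edgeR, DESeq2 or limma adjusted p from 0.0161 to 0.239 and from 0.0373 to 0.133 over the alternatives. Chd3 was not called without wild type replicate 3 (edgeR adjusted p = 0.053), and its adjusted p lay between 0.0029 and 0.053 under the settings tried.

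These are bulk libraries, in which fewer cells of a type and less RNA per cell cannot be told apart. The 6 projection neuron markers summed to between 5705 and 6207 CPM in wild type and between 5805 and 6046 CPM in the mutants. Radial glia markers were lower in the mutants, with 4 of 5 tested called and sums of 165 to 178 CPM in wild type and 122 to 139 CPM in the mutants. Of 3 intermediate progenitor markers 2 were lower (168 to 195 against 126 to 140 CPM). Markers of interneurons (4 of 6 called; 181 to 269 against 251 to 347 CPM), microglia (3 of 5; 13.5 to 17.4 against 22.7 to 30.4 CPM) and the oligodendrocyte lineage (4 of 4; 6.45 to 9.38 against 14.0 to 28.4 CPM) were higher. Of 2 tested astrocyte markers Gfap was lower (sums of 7.69 to 12.9 against 3.04 to 7.09 CPM), and none of 3 endothelial or 4 red blood cell markers was called. No listed marker with a row was at 0 in every library. The part of these shifts in the falls of the zinc finger genes was not tested.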

How the data were processed

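The authors deposited 1 table of whole-number read counts per Entrez gene for 7 polyA libraries. Counts came from featureCounts and the build named is mm9, per the submitters' processing notes; the aligner, annotation release, strand and multiple-match settings were not given in the sources used here. Symbols were matched by Entrez identifier to the RefSeq table (GRCm38.p6): 24176 of 26286 (92.0%). Promoters were from RefSeq and transcript words from GENCODE M21. The chromosome and start of each gene were joined to the counts from the RefSeq table by Entrez identifier. They set the cluster, its neighbours and the groups by chromosome.

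Genes were filtered with filterByExpr (minimum count 10) and tested with edgeR 4.0.16 (R 4.3.3; TMM factors 0.989 to 1.01; quasi-likelihood test on genotype alone), after a check on simulated data. The labels give separate mice as replicates. Named genes were Kat7, tested cluster members, called members elsewhere, the 5 uncalled members of highest CPM, called machinery genes, Trim28 and Setdb1. The members and lists were chosen with earlier results of these data known. Alternatives used other scalings, filters and thresholds, DESeq2 1.42.0, limma 3.58.1 (voom), a replicate block, a summed cluster row and each library left out. The protein comparison planned was replaced by transcript words.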

Additional observations from a re-analysis of the deposited data

Results flagged for a closer look

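In 38 named genes, 4 groups of libraries held 1 library that stood apart by Dixon's ratio at its 95% level, which chance gives in about 1 of 20 groups. Among the KAT7 mutants, Kat7 was highest in replicate 4 with 1.22 CPM (0.351 to 0.464 CPM in the others). Gm14418 was highest in replicate 1 with 0.701 CPM (0.464 to 0.489 CPM in the others), and Zfp970 was highest in replicate 3 with 0.945 CPM (0.580 to 0.611 CPM in the others). Chd3 was lowest in replicate 3 with 1025 CPM (1134 to 1155 CPM in the others). Each of these 4 values lay below every wild type library of that gene.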

How the results depend on the processing

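For 27 named genes with a test, 511 values were recomputed under the alternatives, of which 471 kept direction and call, 35 lost the call, 2 gained it and 3 changed sign. The 27 include Kat7, Zfp967, Zfp970, Zfp931 and Zfp993, which passed the filter only through the wild type libraries. Their calls in filtered fits are counted among these values. For the 11 listed Gm genes, given without a test, 186 of 187 log2 fold changes moved by less than the spread between libraries. Leaving out 1 library or rescaling can seldom move a value that far, so nothing is read from this count. The 3 changes of sign were in Zfp933, which was not called. Its log2 fold change was -0.0028 with the replicate block, and from -0.0088 to 0.084 leaving out libraries. It lay below 0 without wild type 1 or mutant 4 (-0.0033). Cluster calls fell from 13 to 10 with DESeq2 and to 10 to 13 leaving out libraries. The cluster median of -1.04 was -1.15 without the count filter, where all 17 members enter, and -1.24 to -0.93 leaving out libraries. The member called higher outside the cluster, Zfp939, was not called (0 genes) without the filter, with DESeq2, with the replicate block or at an adjusted p under 0.01, and 0 to 1 were called leaving out libraries. Of the unlisted cluster rows 2 were called lower without the filter and 1 without wild type replicate 1. Of the other Zfp genes 16 were higher with DESeq2, 16 with the replicate block and 15 to 28 leaving out libraries; at an adjusted p under 0.01, 13 were higher and 22 lower, 1 machinery gene was lower and 1034 of all genes were higher. For these changes the cause was not tested, beyond the stricter threshold and the fewer or more genes by construction. Same-numbered libraries of the genotypes did not deviate together (correlations of -0.029 to 0.018, and 0 of 3 wild type libraries correlated best with their own number), so the numbers were not taken to pair them; with the replicate block 1460 genes were called higher and 1943 lower. Low counts limit Gm14288, Zfp967, Gm14418 and the untested members most.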
